A study of Mus musculus with 6 samples.

Results

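The insulin receptor cascade from the receptor to AKT and FOXO was described through 9 genes, namely Insr, Irs1, Irs2, Grb10, Grb14, Pik3ca, Pik3r1, Akt2 and Foxo1, which were found by their gene names among the 45706 genes of the count table. RNA was sequenced from 3T3-L1 cells, a mouse embryonic fibroblast line that differentiates into adipocytes, on day 7 after an adipogenic cocktail of insulin, dexamethasone, IBMX and rosiglitazone. There were 3 scrambled control samples (genotype WT in the labels) and 3 RBMS1 knockdown samples (genotype RBMS1KD), both stably transduced with a lentiviral shRNA and selected with puromycin. RBMS1 is an RNA-binding protein, and the comparison asked which transcripts differ in adipocytes when its mRNA is targeted. No acute insulin stimulation of these cultures is described, and the sources used here do not say whether the samples of a group came from separate transductions, so the p-values measure the spread between these samples.

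Insulin binds a receptor tyrosine kinase encoded by Insr, which phosphorylates the docking proteins IRS1 and IRS2. These recruit PI 3-kinase, a complex of a regulatory and a catalytic subunit, and its lipid product brings AKT to the membrane, where AKT promotes glucose transport and keeps the transcription factor FOXO1 out of the nucleus. GRB10 and GRB14 bind the activated receptor and inhibit it, and FOXO1 is known to act on the genes of the receptor and of IRS2, so the cascade feeds back on its own transcripts. In adipocytes this pathway drives glucose uptake and lipid storage and restrains lipolysis.

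Total estimated counts lay between 3142699 and 11073111 per sample. Scrambled control replicate 2 had the fewest counts, and genes derived from ribosomal RNA took 43.0% of them, against 8.12% to 17.8% in the other samples. Values are given below as CPM, that is counts scaled to the size of the library times its TMM factor, where 3 counts correspond to between 0.220 and 1.49 CPM. Rbms1, the targeted gene, had 113, 102 and 99.6 CPM in the scrambled control and 49.2, 61.4 and 84.0 CPM in RBMS1 knockdown samples, with no overlap, but its log2 fold change of -0.69 (standard error 0.20) did not pass the test (adjusted p = 0.185, quasi-likelihood F test of edgeR, Benjamini-Hochberg adjusted over all tested genes). The study showed the knockdown at the protein level by immunoblot, a measure that the counts do not give. All 10 adipocyte markers listed were expressed, and all had log2 fold changes below 0. Their summed level was 21209, 22555 and 24649 CPM in the control samples and 20072, 11014 and 12883 CPM in RBMS1 knockdown samples 1, 2 and 3. Lpl, which lies on chromosome 8, alone gave 12275, 11958 and 14512 CPM of the control sums and 10210, 5350 and 5595 CPM of the knockdown sums. The 10 preadipocyte and fibroblast markers summed to 10518, 9325 and 9094 CPM against 5078, 11490 and 11689 CPM, so RBMS1 knockdown replicate 1 stood apart from the other samples of its group in both sums. Col1a1, Col1a2 and Col3a1 made up most of the fibroblast sums. Of the 9 fibroblast and preadipocyte markers tested, 5 were below 0 and 4 above. Dlk1 and Pdgfra had log2 fold changes of -0.84 and -0.87 (edgeR adjusted p = 0.388 and 0.155), with every knockdown sample below every control sample. The 6 macrophage markers summed to at most 3.39 CPM in any sample, and Adgre1 and Ptprc were at 0 throughout. In such bulk samples, fewer cells of a type and less RNA per cell cannot be told apart.

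Of the 9 genes, all of which passed the filter on low counts, Grb10 and Pik3ca were lower in RBMS1 knockdown adipocytes in that edgeR test at the threshold of 0.1 on the adjusted p, and none was higher. Over all 11440 tested genes, 1.22% were called at this threshold, 0.909% in the lower and 0.315% in the higher direction. An unadjusted p under 0.05 was found for 3 of the 9 genes and for 12.4% of all tested genes. The same 2 genes and Irs2 had all 3 knockdown samples below all 3 control samples. This arrangement was found in 9.55% of the tested genes and the opposite one in 8.96%, so that 18.5% did not overlap. The other 6 genes overlapped between the groups. Log2 fold changes were below 0 in 8 of the 9 genes with a median of -0.32, beside a median of 0.0044 and 49.6% below 0 over all tested genes. DESeq2 called Grb10, Pik3ca and Irs2, where it called 3.2% of the 13454 genes it adjusted. Without RBMS1 knockdown replicate 1, edgeR called Insr, Irs2, Grb10 and Pik3ca, all lower, and 5.94% of the genes tested there. The plot of CPM by sample shows the 9 genes side by side.

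**Figure D1:**
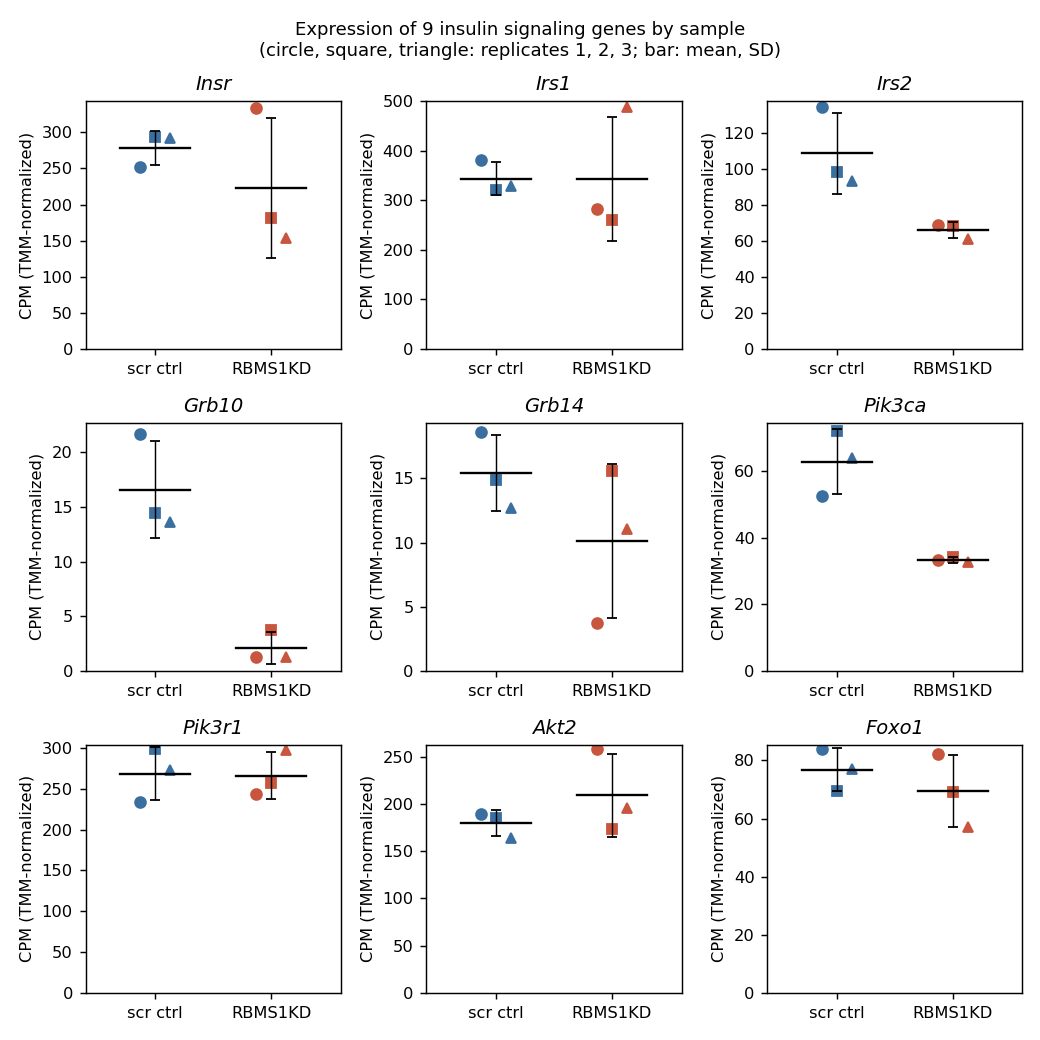
CPM after TMM scaling (y axis, from 0) of the 9 genes in the 3 scrambled control (blue) and 3 RBMS1 knockdown (red) samples; symbols mark the replicate number, and bars give the mean and SD. The groups are apart for Irs2, Grb10 and Pik3ca, and RBMS1 knockdown replicate 1 lies above all control samples for Insr.

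At the level of the receptor, Insr (ENSMUSG00000005534, chr8:3122061-3279617, minus strand, GRCm38) had 251, 293 and 291 CPM in the scrambled control and 333, 182 and 154 CPM in RBMS1 knockdown samples. One knockdown sample was thus above every control and the other 2 below every control, so the groups overlapped. The mean was 278 ± 23.7 CPM (SD, n = 3) in the control and 223 ± 96.5 CPM (SD, n = 3) in knockdown cells. The log2 fold change of -0.32 (standard error 0.27, 95% interval -0.92 to 0.28) did not pass the test (edgeR adjusted p = 0.678). Without RBMS1 knockdown replicate 1 it was -0.72 (edgeR adjusted p = 0.0411). That sample also had the highest adipocyte marker sum and the lowest fibroblast marker sum of its group, and the part of these in the Insr values was not tested. Igf1r, which encodes the related receptor for insulin-like growth factor 1, had 29.7 ± 5.14 CPM (SD, n = 3) in the control and 19.7 ± 5.41 CPM (SD, n = 3) in knockdown samples, with overlap between the groups (log2 fold change -0.59, edgeR adjusted p = 0.357).

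The 2 docking proteins of the receptor differed in how their transcripts were arranged. Irs1 (ENSMUSG00000055980, chr1:82233101-82291416, minus strand), one of the main substrates of the receptor kinase in adipocytes, had 381, 321 and 329 CPM in the control and 282, 259.6 and 487 CPM in knockdown samples. RBMS1 knockdown samples 1 and 2 were below all controls and sample 3 was above them. The means were 343 ± 32.9 and 343 ± 125 CPM (SD, n = 3 each), and the log2 fold change of -0.0033 had a 95% interval of -0.54 to 0.54 (edgeR adjusted p = 0.996). Irs2 (ENSMUSG00000038894, chr8:10984681-11008458, minus strand), the second main docking protein and a known target of FOXO1, had 134, 98.3 and 93.1 CPM in the control and 68.9, 68.3 and 61.1 CPM in knockdown samples. Every knockdown sample was below every control sample, and the knockdown samples lay close together. Mean levels were 108 ± 22.3 and 66.1 ± 4.29 CPM (SD, n = 3 each), a log2 fold change of -0.72 (standard error 0.17, 95% interval -1.11 to -0.32). This did not pass the threshold in the edgeR test (adjusted p = 0.129), while the adjusted p by DESeq2 was 0.0355. Without RBMS1 knockdown replicate 1, Irs2 passed in the edgeR test as well (adjusted p = 0.0688).

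The sequences before the annotated starts of the 3 non-overlapping genes are shown because the core TGTTT of the FOXO recognition sequence can be read in them. They are the 250 bases before the start in RefSeq (GRCm38.p6), written 5′ to 3′ on the strand of the gene, with each TGTTT found on either strand in capitals. These RefSeq starts differ from the ends of the gene spans printed here, which come from another annotation. Distances to a start refer to the RefSeq start. The Irs2 window lies at chr8:11008930-11009179 on the minus strand, the Pik3ca window at chr3:32396815-32397064 on the plus strand, and the windows of 2 Grb10 starts at chr11:12037421-12037670 and chr11:12027972-12028221 on the minus strand.
Irs2: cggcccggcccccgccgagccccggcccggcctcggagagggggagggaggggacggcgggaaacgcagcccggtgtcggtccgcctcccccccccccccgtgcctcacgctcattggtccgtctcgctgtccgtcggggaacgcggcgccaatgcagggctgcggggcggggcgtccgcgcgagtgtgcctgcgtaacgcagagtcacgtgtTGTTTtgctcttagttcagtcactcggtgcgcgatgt
Pik3ca: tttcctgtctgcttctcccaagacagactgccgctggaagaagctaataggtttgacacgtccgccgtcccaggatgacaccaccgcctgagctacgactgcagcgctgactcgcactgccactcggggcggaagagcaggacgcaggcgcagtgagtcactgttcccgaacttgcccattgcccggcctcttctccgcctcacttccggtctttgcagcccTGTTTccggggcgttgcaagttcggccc
Grb10, first start: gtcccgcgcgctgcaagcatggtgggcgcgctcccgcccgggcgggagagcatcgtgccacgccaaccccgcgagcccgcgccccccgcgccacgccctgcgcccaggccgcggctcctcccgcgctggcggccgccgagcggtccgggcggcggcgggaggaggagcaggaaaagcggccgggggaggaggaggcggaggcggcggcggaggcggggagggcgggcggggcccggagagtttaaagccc
Grb10, second start: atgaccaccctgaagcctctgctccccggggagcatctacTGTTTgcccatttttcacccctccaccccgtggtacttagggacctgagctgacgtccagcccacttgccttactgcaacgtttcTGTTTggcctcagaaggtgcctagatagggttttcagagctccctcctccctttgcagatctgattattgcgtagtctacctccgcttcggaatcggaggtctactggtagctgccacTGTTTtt
The Irs2 window held 1 match, which begins 37 bases before the start, and the Pik3ca window held 1, which begins 28 bases before it. Of the Grb10 windows, the first held 0 matches, 40 CpG dinucleotides and a GC content of 81.2%, and the second held 3 matches and 8 CpG. Among all 32851 starts in the table, 46.4% of windows of this length held TGTTT on either strand, and 8 of the 13 starts listed for the genes described here did so, so a match is common. The longer form TGTTTAC, which contains TGTTT, was found in 3.17% of all windows and in 0 of the 13. RefSeq starts in this table covered 8 of the 9 genes, and Insr was not among them. The count table gives no transcript isoforms, so which Grb10 start was used in these cells was not tested.

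Among the inhibitory adaptors, Grb10 (ENSMUSG00000020176, chr11:11930508-12038683, minus strand), an imprinted gene whose product binds the insulin receptor and is also a substrate of mTORC1, was at a small fraction of its control level in RBMS1 knockdown samples. It had 21.6, 14.4 and 13.6 CPM in the control and 1.29, 3.74 and 1.25 CPM in knockdown samples, from 135, 29 and 79 counts against 9, 32 and 17 counts. The highest knockdown sample was below the lowest control sample by a wide margin. The mean fell from 16.5 ± 4.43 to 2.09 ± 1.43 CPM (SD, n = 3 each), or 12.7% of the control. This was a 7.95-fold lower level, or a log2 fold change of -2.99 (standard error 0.45), with an edgeR adjusted p of 0.0333. With single samples left out, the log2 fold change stayed between -3.68 and -2.69. The call was lost without scrambled control replicate 1, 2 or 3 (adjusted p = 0.132, 0.106 and 0.107 by edgeR), which left 2 control samples each time. Grb14 (ENSMUSG00000026888, chr2:64912476-65024987, minus strand), whose product inhibits the receptor kinase directly, had 18.6, 14.9 and 12.7 CPM in the control and 3.74, 15.5 and 11.1 CPM in knockdown samples. Only RBMS1 knockdown replicate 1 was far below the controls, and the groups overlapped. Its log2 fold change was -0.60 (standard error 0.43, 95% interval -1.57 to 0.36, edgeR adjusted p = 0.621).

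In PI 3-kinase, transcripts of the catalytic and the regulatory subunit were arranged differently. Pik3ca (ENSMUSG00000027665, chr3:32397671-32468486, plus strand), which encodes the catalytic subunit p110-alpha, the isoform known to carry most insulin signaling, had 52.6, 72.0 and 63.8 CPM in the control and 33.2, 34.4 and 32.7 CPM in knockdown samples. The knockdown samples were almost equal to each other and all below the controls. The mean fell from 62.8 ± 9.74 to 33.4 ± 0.869 CPM (SD, n = 3 each), or 53.2% of the control, with a log2 fold change of -0.91 (standard error 0.16, 95% interval -1.28 to -0.54, edgeR adjusted p = 0.0578). This call was lost without scrambled control replicate 1, 2 or 3 (edgeR adjusted p = 0.123, 0.238 and 0.227) and without RBMS1 knockdown replicate 2 or 3 (0.179 and 0.107). It was also lost with library sizes alone, where the log2 fold change was -0.50 (edgeR adjusted p = 0.348) and the median of all tested genes was 0.37, and with the median of each sample per chromosome removed, where Pik3ca had a log2 fold change of -0.28 (edgeR adjusted p = 0.604). Pik3r1 (ENSMUSG00000041417, chr13:101680563-101768217, minus strand), which encodes the regulatory subunits p85-alpha, p55-alpha and p50-alpha, had 234, 298 and 273 CPM in the control and 244, 257 and 298 CPM in knockdown samples. The samples of the groups were interleaved, and the log2 fold change of -0.01 had a 95% interval of -0.37 to 0.35 (edgeR adjusted p = 0.986). The other catalytic gene that could be tested, Pik3cb, had 15.0 ± 3.34 and 9.21 ± 3.65 CPM (SD, n = 3 each) with overlapping samples (log2 fold change -0.70, edgeR adjusted p = 0.404). It passed with RBMS1 knockdown replicate 1 left out (log2 fold change -1.05, edgeR adjusted p = 0.0876). Pik3cd was at most 1.03 CPM in any sample. The regulatory paralogs Pik3r2 and Pik3r3 had log2 fold changes of -0.35 and 0.19, neither past the test (edgeR adjusted p = 0.413 and 0.822). Pik3r2 lies on chromosome 8, where most genes were lower, and its value was 0.044 with these chromosome medians removed.

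For AKT, the kinase that carries the signal to glucose transport, Akt2 (ENSMUSG00000004056, chr7:27591552-27640826, plus strand), the isoform most tied to insulin action in adipocytes, had 189.6, 185 and 164 CPM in the control and 258, 173 and 196 CPM in knockdown samples. Samples 1 and 3 of the knockdown were above all controls and sample 2 lay among them. The log2 fold change was 0.22 (standard error 0.18, 95% interval -0.18 to 0.62, edgeR adjusted p = 0.671). Akt1 had 117 ± 14.3 CPM (SD, n = 3) in the control and 162 ± 52.5 CPM (SD, n = 3) in knockdown samples (log2 fold change 0.47, edgeR adjusted p = 0.459), and it passed the threshold with RBMS1 knockdown replicate 1 left out (log2 fold change 0.70, edgeR adjusted p = 0.0599).

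Foxo1 (ENSMUSG00000044167, chr3:52268336-52353221, plus strand), the transcription factor that AKT inactivates, had 84.0, 69.5 and 77.1 CPM in the control and 82.2, 69.1 and 57.3 CPM in knockdown samples. The groups overlapped, with RBMS1 knockdown replicate 3 the lowest of all samples. Its log2 fold change was -0.15 (standard error 0.17, 95% interval -0.53 to 0.24, edgeR adjusted p = 0.783). Foxo3 had 70.3 ± 2.80 and 79.9 ± 10.5 CPM (SD, n = 3 each), a log2 fold change of 0.18 that did not pass the test either (edgeR adjusted p = 0.676). The plot of fold changes sets these genes beside paralogs.

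**Figure D2:**
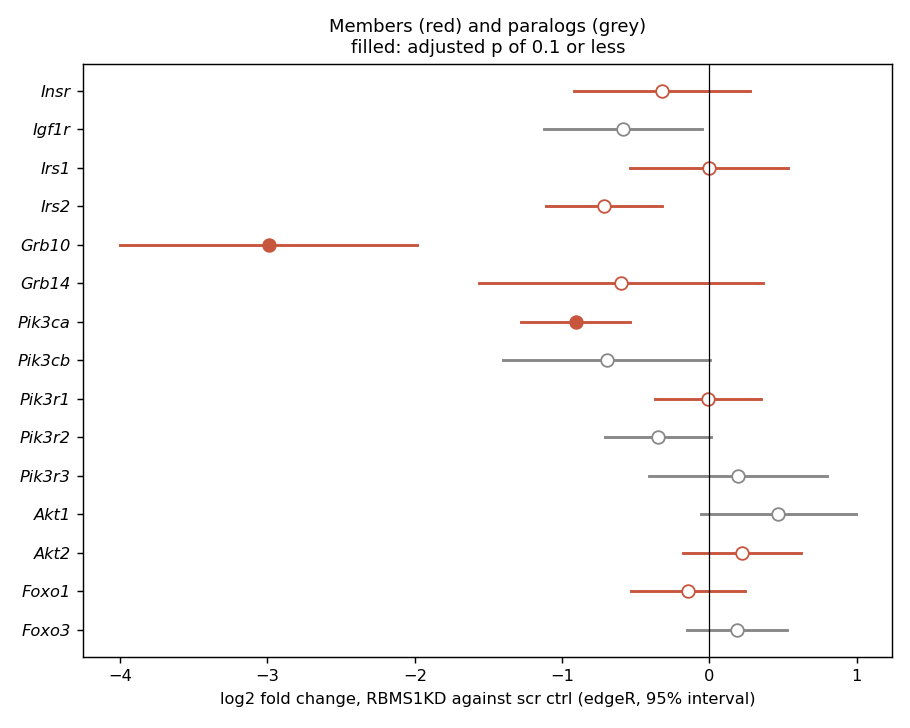
Log2 fold change of RBMS1 knockdown against scrambled control (x axis) with its 95% interval from edgeR, for the 9 genes (red) and paralogs of them (grey); filled symbols passed an adjusted p of 0.1. Grb10 at -2.99 and Pik3ca at -0.91 are the filled symbols, and the intervals of Irs1, Pik3r1, Akt2 and Foxo1 include 0.

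Per kilobase of exon, transcript levels of the 9 genes could be set in order. In the control, Irs1 was the most abundant with 37.6 ± 3.60 CPM per kilobase (SD, n = 3). Pik3r1 followed with 26.6 ± 3.22, Akt2 with 25.2 ± 1.93, Insr with 20.3 ± 1.72 and Irs2 with 17.2 ± 3.52 CPM per kilobase. Foxo1 had 8.87 ± 0.838, Pik3ca 6.91 ± 1.07, Grb14 2.14 ± 0.413 and Grb10 1.82 ± 0.488 CPM per kilobase. The control samples of the neighbours Pik3r1 and Akt2, and of Grb14 and Grb10, overlapped on this scale, and so did those of Insr and Irs2, where Irs2 reached 21.2 CPM per kilobase in replicate 1. The other neighbours in this order were apart in every control sample. The order in knockdown cells was the same apart from Akt2 (29.3 ± 6.18) and Pik3r1 (26.4 ± 2.81), which exchanged places within their spread, and Grb10 was at 0.230 ± 0.157 CPM per kilobase.

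For some of the families, sums over paralogs were taken on the per-kilobase scale, as far as reads of paralogs were told apart by the estimation of counts. The class IA catalytic subunits summed to 7.70, 10.6 and 8.97 CPM per kilobase in the control and 5.56, 4.82 and 4.83 CPM per kilobase in knockdown samples, without overlap, and Pik3ca made up 74.6% to 78.3% of the control sum. The regulatory subunits summed to 53.8 ± 4.14 and 50.9 ± 7.93 CPM per kilobase (SD, n = 3 each), with overlap. Irs2 made up 29.1% to 33.7% of the sum of Irs1 and Irs2 in the control and 15.4% to 27.5% in knockdown samples. Grb10 made up 43.3% to 47.9% of the sum of Grb10 and Grb14 in the control and 8.17% to 21.5% in knockdown samples. The 4 FOXO genes together were at 28.8 ± 1.76 and 27.8 ± 0.916 CPM per kilobase (SD, n = 3 each).

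Ratios of counts within a library do not depend on how libraries are scaled, and 6 of them were compared. There were 0.0862, 0.0492 and 0.0466 Grb10 counts per Insr count in the control and 0.00388, 0.0206 and 0.00811 in knockdown samples, 6.73-fold lower on the mean log2 scale, a log2 difference of -2.75 that became -3.37 when RBMS1 knockdown replicate 2 was left out and -2.17 when replicate 1 of that group was. Counts of Grb10 per Grb14 count were 1.16, 0.967 and 1.07 in the control and 0.346, 0.241 and 0.113 in knockdown samples, 5.04-fold lower. In both ratios every knockdown sample was below every control sample. Pik3r1 had 4.45, 4.14 and 4.28 counts per Pik3ca count in the control and 7.34, 7.48 and 9.13 in knockdown samples, 1.85-fold higher, and every knockdown sample was above every control sample. Irs1 had 2.84, 3.26 and 3.53 counts per Irs2 count in the control and 4.09, 3.80 and 7.96 in knockdown samples, 1.56-fold higher. Each of these 4 ratios reached p = 0.1 in a two-sided exact permutation test, the smallest that 3 against 3 samples allow, or 0.15 after adjustment over the 6 ratios. Irs1 lies on chromosome 1, where the other tested genes had a median log2 fold change of 0.25, against -0.38 on chromosome 8 with Irs2. With chromosome medians removed, log2 fold changes were -0.24 for Irs1 and -0.33 for Irs2, and -0.036 for Pik3r1 and -0.28 for Pik3ca. The part of such regional levels in the ratios of Irs1 to Irs2 and of Pik3r1 to Pik3ca was not tested. The ratios of Akt2 to Akt1 (exact permutation p = 0.7, adjusted 0.7) and of Foxo1 to Foxo3 (exact permutation p = 0.4, adjusted 0.48) overlapped between the groups, as the plot of ratios shows.

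**Figure D3:**
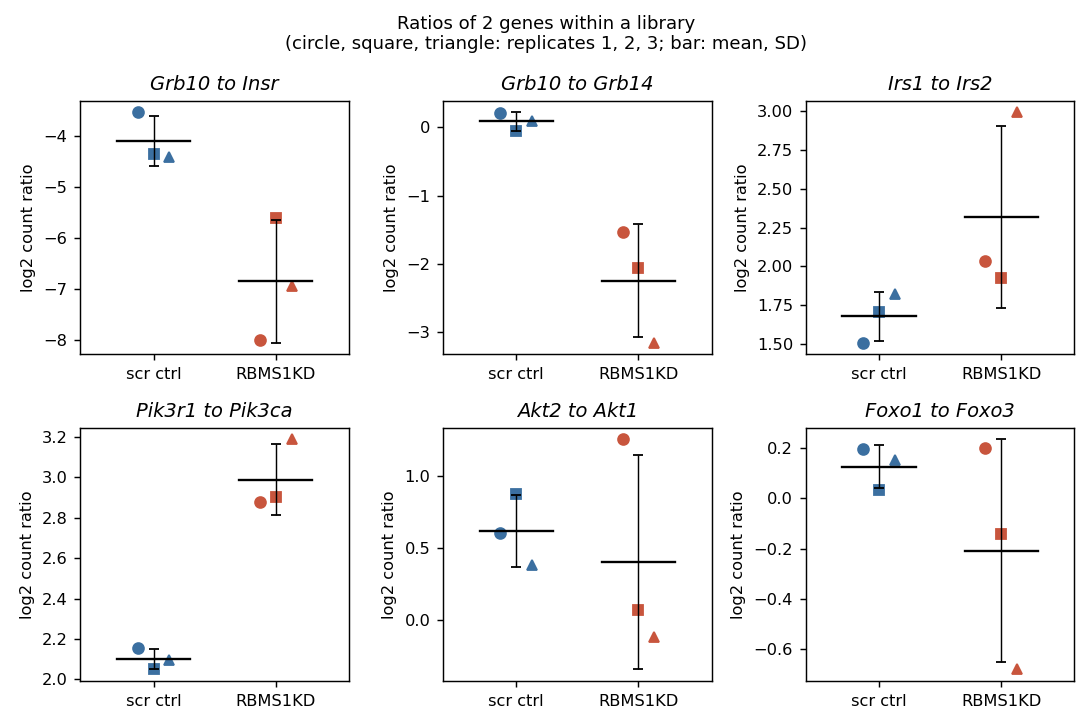
Log2 ratio of the counts of 2 genes in the same library (y axis) for each scrambled control (blue) and RBMS1 knockdown (red) sample; symbols mark the replicate number, and bars give the mean and SD. The 4 ratios of Grb10 to Insr, Grb10 to Grb14, Irs1 to Irs2 and Pik3r1 to Pik3ca do not overlap between the groups.

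The place of the genes on their chromosomes bears on Pik3ca and Irs2, and also on Insr and Irs1. Genes on chromosome 8 and in the first 50 Mb of chromosome 3 were mostly lower in knockdown samples, with 90.1% of 624 and 90.1% of 91 tested genes below 0 and median log2 fold changes of -0.38 and -0.64, beside 46.9% and 0.025 for 10687 genes elsewhere. Of the 5 tested genes on each side of Pik3ca, all 10 were below 0 (median -0.61), 3 were called, and 1 was lower than Pik3ca itself. Counted in the same way around Irs2, 9 of 10 neighbours were below 0 (median -0.32, 0 called at an adjusted p of 0.1). The neighbours of Insr, which is the first tested gene on chromosome 8, were below 0 in 4 of 5 cases (median -0.22). By contrast, Grb10 on chromosome 11 was lower than each of its 10 neighbours, whose median was -0.047 with 6 below 0, and 1 of them was called, Egfr at -2.08, the lowest. With the median of each sample per chromosome, and per part of chromosome 3, removed, the log2 fold change was -0.28 for Pik3ca as given above, -0.33 for Irs2 (edgeR adjusted p = 0.627) and 0.07 for Insr. Grb10 was still called in that setting, as were 0.621% of all tested genes. What lies behind the lower level of these regions was not tested. The neighbours of the other genes had medians of 0.29 for Irs1, -0.11 for Grb14, -0.01 for Pik3r1, 0.083 for Akt2 and -0.13 for Foxo1, which lies beyond the first 50 Mb of chromosome 3. Chromosome 1, where Irs1 lies, was counted above among the genes elsewhere. Of its 674 other tested genes, 21.5% were below 0, with a median of 0.25. With the chromosome medians removed, Irs1 had a log2 fold change of -0.24 (edgeR adjusted p = 0.816).

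**Figure D4:**
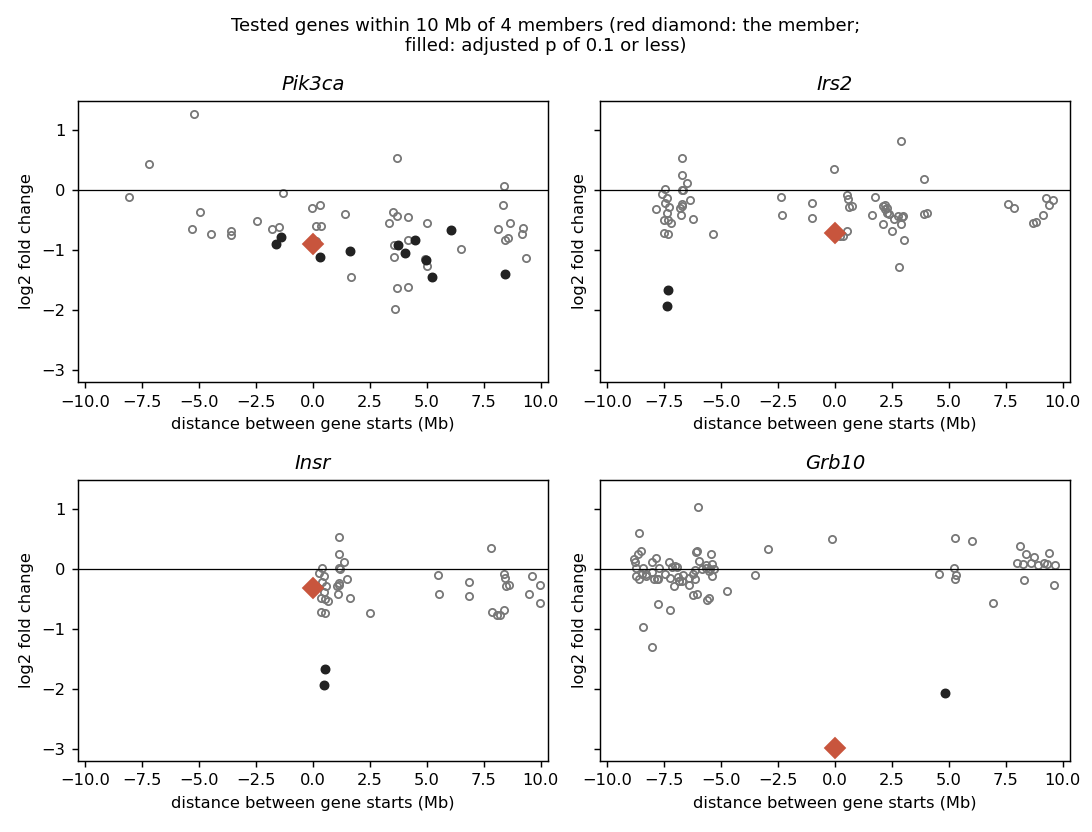
Log2 fold change (y axis) of tested genes against the distance of their starts from the start of Pik3ca, Irs2, Insr and Grb10 (x axis, Mb); the red diamond is the named gene, and filled symbols passed an adjusted p of 0.1. Around Pik3ca most genes lie below 0 together with it, and Grb10 lies below all genes around it, 1 of which, Egfr at -2.08, is filled.

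Another 67 genes of the pathway, from the receptor to the vesicles of the glucose transporter, were read from the same test. Of the 61 that were tested, 31 had log2 fold changes below 0 and 30 above it, with a median of -0.014. The 1 called gene, beside 1.22% called over all tested genes, was Prkci, which encodes the atypical protein kinase C iota and is placed in the insulin pathway for its part in glucose transport. It had 61.2, 69.5 and 80.0 CPM in the control and 41.1, 42.6 and 38.7 CPM in knockdown samples, a log2 fold change of -0.78 (standard error 0.16, edgeR adjusted p = 0.0842). Prkci lies 1.40 Mb before Pik3ca at chr3:30995747-31052959, and its log2 fold change was -0.16 with the chromosome medians removed (edgeR adjusted p = 0.779). Its call was lost in the edgeR test without each of the 6 samples except RBMS1 knockdown replicate 1 (adjusted p = 0.132 to 0.298). Groups did not overlap in 14 of the 61 genes, 10 of them lower, beside 18.5% and 9.55% of all tested genes. Without RBMS1 knockdown replicate 1, the number of called genes among them was 6, where 5.94% of all tested genes were called.

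By role, 3 of the 5 other inhibitors at the receptor that were tested were below 0 (median -0.22) and none was called, with 1 at an unadjusted p under 0.05. Over all tested genes, 49.6% were below 0, 1.22% were called and 12.4% had an unadjusted p under 0.05. Socs3, a feedback inhibitor induced by cytokines and insulin, had 111, 65.0 and 67.1 CPM in the control and 6.76, 55.6 and 27.5 CPM in knockdown samples (log2 fold change -1.44, standard error 0.57, edgeR adjusted p = 0.346), with RBMS1 knockdown replicate 1 far below the rest. Enpp1, whose product inhibits the receptor, was at most 3.05 CPM (log2 fold change -1.43, edgeR adjusted p = 0.479). Single samples moved both values, to -2.22 for Socs3 and -2.60 for Enpp1 without RBMS1 knockdown replicate 2, while Socs3 was at -0.96 with replicate 1 of that group left out and Enpp1 at -1.03 with replicate 3 left out. Of the 10 other receptor and adaptor genes, 4 were below 0 (median 0.021), among them the docking protein gene Gab1 with 51.5 ± 3.05 and 38.9 ± 4.74 CPM (SD, n = 3 each) and no overlap (log2 fold change -0.40, edgeR adjusted p = 0.338). Gab1 lies on chromosome 8, and its log2 fold change was -0.012 with the chromosome medians removed. Genes that oppose PI 3-kinase and AKT were above 0 in 4 of 6 cases (median 0.23), and 0 were called by edgeR, with 2 at an unadjusted p under 0.05. Phlpp1, a phosphatase of AKT, had 18.3 ± 4.61 and 27.4 ± 2.72 CPM (SD, n = 3 each), without overlap (log2 fold change 0.57, edgeR adjusted p = 0.313).

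Of the 14 other genes of AKT and the mTOR complexes, 7 were below 0 (median 0.022). Eif4ebp1, the translation repressor that mTORC1 switches off, lies on chromosome 8 and had 222, 287 and 266 CPM in the control and 185, 122 and 170.5 CPM in knockdown samples (log2 fold change -0.70, edgeR adjusted p = 0.161), and DESeq2 called it, as did edgeR with RBMS1 knockdown replicate 1 left out (adjusted p = 0.0521). With the chromosome medians removed its log2 fold change was -0.31. Among 9 AKT substrates, 5 were below 0 (median -0.22) and none was called, where 1.22% of all tested genes were. Gsk3b, the kinase that restrains glycogen synthesis, had 251 ± 4.71 and 310.4 ± 32.1 CPM (SD, n = 3 each) without overlap (log2 fold change 0.30, edgeR adjusted p = 0.441), and Bad, a cell death gene, had a log2 fold change of 0.71 (edgeR adjusted p = 0.418). Of 13 glucose transporter vesicle genes, 7 were below 0 (median -0.027). They include Sort1, a sorting receptor of these vesicles, at 395 ± 10.8 and 323 ± 76.2 CPM (SD, n = 3 each, log2 fold change -0.29, edgeR adjusted p = 0.591).

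FOXO target genes outside the 9 were listed as well, since FOXO1 acts at the end of this cascade. Of 26 listed, 22 were tested, 13 were below 0 and 9 above, with a median of -0.055. By edgeR 0 of them were called, 5 had an unadjusted p under 0.05, as 12.4% of all tested genes did, and DESeq2 called 2, where it called 3.2% of all genes it adjusted. Cat, the gene for catalase, had 411, 613 and 535 CPM in the control and 343, 262 and 253 CPM in knockdown samples, all of the latter below all controls (log2 fold change -0.86, standard error 0.20, edgeR adjusted p = 0.115). Ppargc1a, a coactivator of mitochondrial genes, had 17.3, 22.8 and 13.2 CPM in the control and 9.34, 9.23 and 6.31 CPM in knockdown samples, again without overlap (log2 fold change -1.09, standard error 0.27, edgeR adjusted p = 0.140). Without RBMS1 knockdown replicate 1, 7 of the FOXO target genes, Cat (adjusted p = 0.0240) and Ppargc1a (0.0773) among them, were called by edgeR, as were 5.94% of all tested genes. The plot of the pathway by role shows the fold changes of these genes around those of the 9.

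**Figure D5:**
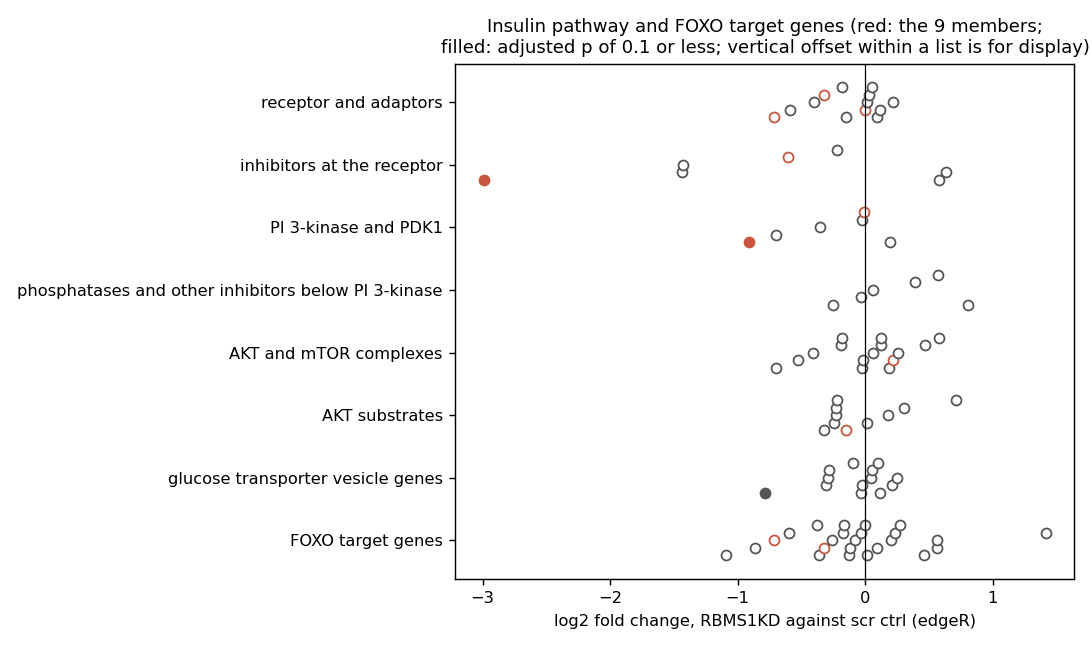
Log2 fold change of RBMS1 knockdown against scrambled control (x axis) of the tested genes of 7 pathway lists and of FOXO targets (rows; red marks the 9 genes, filled symbols an adjusted p of 0.1 or less, and vertical offsets are for display). Grb10 at -2.99 is the lowest gene shown, and the other genes spread on both sides of 0.

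For the 2 called genes, the tested genes with the most similar pattern over the 6 samples were found by the root mean square difference of log2 CPM, each gene centred on its own mean. For Grb10 these were P3h3, which encodes a prolyl hydroxylase of collagen (0.365 on the log2 scale), Dusp1, a phosphatase of MAP kinases that glucocorticoids induce (0.379), and Fbxo31 (0.395). Dusp1 had 128, 85.9 and 123 CPM in the control and 10.6, 40.2 and 19.2 CPM in knockdown samples, with RBMS1 knockdown replicate 2 the highest of its group as for Grb10. For Pik3ca they were S100a13 (0.0755), Mrpl34 (0.0919) and Sec62 (0.0957). S100a13 and Sec62 lie on chromosome 3 and Mrpl34 on chromosome 8. Since nearness was measured over the same 6 samples as the fold changes, these lists describe likeness only.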

How the data were processed

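RNA from 6 cultures was depleted of ribosomal RNA and prepared with a stranded kit. Per the study's methods and the submitters' processing notes, the authors trimmed reads with Trim Galore 0.6.7, mapped them with STAR 2.7.10a on GRCm38 and deposited estimated counts per gene from Salmon 1.9.0, without normalization. The annotation release is not given in the sources used here. Per sample, 3.97% to 7.78% of values were fractional (tolerance 1e-06).

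Estimated counts were rounded and fitted on the condition alone with edgeR 4.0.16 under R 4.3.3 (filterByExpr, TMM, estimateDisp, glmQLFit with legacy = FALSE, glmQLFTest), Benjamini-Hochberg adjusted over 11440 tested genes and a threshold of 0.1 on the adjusted p. Unless stated otherwise, each adjusted p is from this test. Standard errors were derived from the F statistic. Ratios of 2 genes were tested with exact permutation tests (scipy 1.17.1). Positions and exon lengths came from a GRCm38 annotation, and sequences from RefSeq (GRCm38.p6). The script was tested on simulated data. At the threshold of 0.1, 77.39% of the changed genes were recovered there, and 13.97% of the called genes were unchanged ones.

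Alternatives were DESeq2 1.42.0, limma-voom (limma 3.58.1), RLE factors, library sizes alone, library sizes without genes derived from ribosomal RNA, no filter, a filter of 1 CPM in 3 samples, a block on the replicate number, counts left unrounded, removal of trends with GC content and length (loess, span 0.3) with and without the block, removal of chromosome medians with chromosome 3 parted at 50 Mb, and each sample left out. Earlier and robust quasi-likelihood estimates were added after seeing the data.

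The 9 genes, the lists and the 50 Mb boundary were chosen with earlier results of these data known. Named beside the 9 genes were Rbms1, paralogs of the 9, called genes of the lists, the 2 genes of each list with the smallest p, and the 3 genes nearest in pattern to each called gene. Egfr was named after its values were seen. Limits from counts cover counting error only. Some genes that this rule would name are not reported here.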

Additional observations from a re-analysis of the deposited data

How the results depend on the processing

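Over 20 alternatives, Grb10 kept a log2 fold change below 0 in each (-3.68 to -2.67) and was called in 16, with an edgeR, limma-voom or DESeq2 adjusted p from 1.24e-07 to 0.132. Pik3ca was below 0 in each (-1.02 to -0.28) and was called in 11, with an adjusted p from 0.00304 to 0.604. The number of the 9 genes called was 1 with chromosome medians removed, 1 with library sizes alone, 1 with the replicate block, 0 with the replicate block and the GC and length trend removed, and 0 to 4 with single samples left out, 0 without any one control sample and 4 without RBMS1 knockdown replicate 1. Pik3ca was not called with the replicate block (edgeR adjusted p = 0.157), nor was Grb10 with the replicate block and the trend removed (0.106). Same-numbered samples of the groups had correlations of -0.144, 0.0785 and -0.0284, so the numbers were not read as pairs. Of the other pathway genes, 2 were called by DESeq2, 0 with chromosome medians removed, 0 with library sizes alone, 0 with the replicate block, 0 with the block and the trend removed, and 0 to 6 with single samples left out. Of the FOXO targets, 2 were called by DESeq2, 1 without a filter, and 0 to 7 with single samples left out. Over all genes, 430 were called by DESeq2, 268 without a filter, 71 with chromosome medians removed, 39 with the replicate block, 27 with the block and the trend removed, and 12 to 696 with single samples left out. With library sizes alone the median of all tested genes was 0.37 and that of the 9 genes 0.059, or -0.31 relative to all, and 33.3% of called genes were lower, against 74.3% with TMM. With single samples left out that share was 61.2% to 100%. The median of the 9 genes was between -0.39 and -0.18 with single samples left out. The cause of these changes was not tested. Grb10 rests on 9 to 135 counts per sample, and scrambled control replicate 2, with 29, is the least precise control.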
